A study of Mus musculus with 8 samples.

Results

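Accessible chromatin was described at 10 genes of the Polycomb system in mouse bone marrow stem and progenitor cells: Ezh1, Ezh2, Eed, Suz12, Jarid2, Asxl1, Asxl2, Bmi1, Ring1 and Rnf2. Every ATAC-seq peak that overlapped the body of one of these genes or the 20 kb on either side of it was taken, which gave 101 of the 123260 regions that the 8 peak lists form when overlapping peaks are merged. Of the 101 regions, 15 held a summit within 3 kb of a transcription start site (TSS) of the gene itself, 20 lay within 3 kb of the TSS of another gene, and 66 were distal, of 90636 distal regions in the whole data set. ATAC-seq marks open chromatin through the insertion of sequencing adapters by the Tn5 transposase. The 2 cell populations sorted from female mice, at about 10000 cells per reaction, were LSK+ cells, sorted as Lin- Sca-1+ c-Kit+ and holding the stem and multipotent cells, and LSK- cells, sorted as Lin- c-Kit+ without Sca-1 and holding myeloid and erythroid progenitors. All mice were 4.5 months old and of the 129Sv4/Jae x B6 background. XistΔ/Δ mice carried Xist 2lox alleles deleted by a Vav-driven Cre, which is active in blood-forming cells, and the controls were wild type (WT). Whether the WT mice carried the Cre, and how many mice gave each library, is not given in the sources used here. Each of the 4 groups held 2 libraries, so p-values measure the spread between these libraries, which may be partly technical.

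Polycomb proteins keep developmental genes silent. Polycomb repressive complex PRC2 methylates histone H3 through its catalytic subunit, EZH1 or EZH2, which works only together with EED and SUZ12, and JARID2 helps to bring the complex to its targets. PRC1 attaches ubiquitin to histone H2A through RING1 or RNF2 (RING1B), which pair with BMI1 or a related protein, and ASXL1 and ASXL2 are partners of BAP1, the enzyme that removes this ubiquitin. In blood, BMI1 is known for the self-renewal of stem cells, and EZH2 and ASXL1 are recurrently mutated in myeloid neoplasms.

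The measure used throughout is the percentile of a peak within its own list, ranked by the deposited -log10 p-value, so that 100 is the strongest peak of a library and 0 means that the library had no peak there. The lists held 29829 to 91590 peaks, and hold no read totals. In the study's own listing, replicate 1 and replicate 2 libraries were read on different sequencing platforms, and each XistΔ/Δ library had more reads than the WT library with which it shares cell type and replicate number. In both cell types each XistΔ/Δ list was longer than the WT list of the same replicate number. Adding weaker peaks to a list raises the percentile of the peaks already in it. The part of list length in the differences between libraries was not tested. The Xist promoter held a peak at percentile 51.2 to 80.6 in the 4 WT libraries and none in 3 XistΔ/Δ libraries. The library labelled LSK- XistΔ/Δ replicate 2 held a peak there at 26.9, so genotype results are also given without it. Of 8 genes listed as markers of LSK- cells, Gata1 and Epor had higher promoter percentiles in every LSK- than in every LSK+ library, and Gata1, the erythroid master regulator, was at 0 in all 4 LSK+ libraries. None of the 8 markers of LSK+ cells was higher in every LSK+ library, Slamf1 was higher in every LSK- library, and Ly6a, which encodes Sca-1, had a promoter peak in only 1 LSK+ and 1 LSK- library. Cd3e, Cd8a, Ly6g, Alb and Krt5, markers of cells that the sorting should leave out, had no promoter peak in any library.

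The sequences below were read from the RefSeq copy of GRCm38 (mm10), plus strand, around the summit of the strongest peak. The first 3 are the regions that were higher in every LSK- library and lie outside exons of protein-coding genes, those of Asxl1 and Eed having been added after the values were seen. The last 2 are the promoters with the highest and the lowest mean percentile, without exons of protein-coding genes. Capitals mark matches, on either strand, to short words bound by known factor families, none of which overlapped in these windows. The word searched was AGATAA for GATA factors. For RUNX factors it was TGTGGT, and ETS factors were given the word AGGAAG. C/EBP factors were given the word TTGCGCAA. For E2F factors the word was TTCCCGC, and that of YY1 was AAGATGG. The insulator factor CTCF had the word AGGGGGC, and the factor NRF1 had the word CGCATGCGC.
Ezh2 intron 3, chr6:47565705-47565904: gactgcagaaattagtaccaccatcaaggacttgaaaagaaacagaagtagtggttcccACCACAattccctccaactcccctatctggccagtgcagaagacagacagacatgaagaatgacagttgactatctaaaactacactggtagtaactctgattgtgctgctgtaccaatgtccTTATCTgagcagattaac
Asxl1 upstream, chr2:153334406-153334605: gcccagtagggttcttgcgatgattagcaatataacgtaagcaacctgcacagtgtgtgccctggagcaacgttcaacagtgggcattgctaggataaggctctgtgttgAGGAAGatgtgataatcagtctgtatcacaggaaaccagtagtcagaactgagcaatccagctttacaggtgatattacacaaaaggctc
Eed intron 8, chr7:89963195-89963394: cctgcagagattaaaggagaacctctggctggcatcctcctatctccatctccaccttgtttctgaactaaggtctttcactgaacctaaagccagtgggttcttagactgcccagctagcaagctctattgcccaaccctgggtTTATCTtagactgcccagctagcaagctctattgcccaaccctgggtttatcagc
Asxl2 promoter, chr12:3426709-3426856: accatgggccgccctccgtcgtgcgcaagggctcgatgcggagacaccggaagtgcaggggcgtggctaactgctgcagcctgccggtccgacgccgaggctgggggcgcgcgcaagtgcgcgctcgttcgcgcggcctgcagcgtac
Bmi1 promoter-proximal peak, chr2:18680999-18681198: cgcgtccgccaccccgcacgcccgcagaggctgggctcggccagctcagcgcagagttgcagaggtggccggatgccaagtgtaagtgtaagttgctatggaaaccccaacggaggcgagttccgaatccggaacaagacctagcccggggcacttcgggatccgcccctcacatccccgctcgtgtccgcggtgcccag

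The Ezh2 window held 1 GATA and 1 RUNX match, the Eed window 1 GATA match, and the Asxl1 window 1 ETS match. The GATA letters were found in 15.7% of the 200-base summit windows of all 39282 distal regions present in at least 4 libraries. They were found in 50.3% of the 3538 windows that were higher in every LSK- library and in 5.46% of the 1904 that were higher in every LSK+ library. ETS letters went the other way, with 48.0% of all windows, 29.9% of those higher in LSK- and 60.6% of those higher in LSK+. RUNX letters occurred in 29.9%, 29.9% and 33.1% of these windows. Among the 23 distal regions of the 10 genes present in at least 4 libraries, 4 held GATA, 5 RUNX and 13 ETS letters (17.4%, 21.7% and 56.5%). Neither promoter sequence shown holds any of the 8 words, the RUNX match of Asxl2 lying in, or reaching into, the 52 exon bases left out.

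At the promoters, 7 of the 10 genes had strong peaks in all 8 libraries and 3 did not. Means over the 8 libraries were 97.8 ± 1.98 (SD, n = 8) for Asxl2, 96.2 ± 1.41 for Ezh2, 95.7 ± 1.83 for Suz12, 95.7 ± 2.28 for Asxl1, 95.0 ± 2.21 for Eed, 92.5 ± 2.98 for Rnf2 and 88.5 ± 6.28 for Jarid2. The ranges of neighbours in this order overlapped. Ezh1 (52.9 ± 20.6), Ring1 (49.2 ± 27.4) and Bmi1 (32.4 ± 20.5) followed far below, and their ranges overlapped each other but not those of the first 6 genes. Among the 14832 protein-coding genes with a promoter peak in at least 4 libraries, Asxl2 lay above 93.7%, Jarid2 above 63.3%, Ezh1 above 22.8%, Ring1 above 21.03% and Bmi1 above 13.0%. The summit windows of the 10 promoters had 55.5 to 80.5% G and C and 15 to 32 CpG dinucleotides, against medians of 63% and 15 over all these promoters, and Rnf2 and Ring1 were the most GC-rich of the 10. RUNX letters were in 4 of the 10 promoter windows (all promoters, 10.3%) and NRF1 letters in 1, that of Eed (2.66%). E2F, YY1 and CTCF letters were each in 1, that of Asxl1 (5.81%, 4.63% and 12.8%). The ETS word AGGAAG was in none (26.2%), and other sequences that ETS factors bind were not searched.

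**Figure D1:**
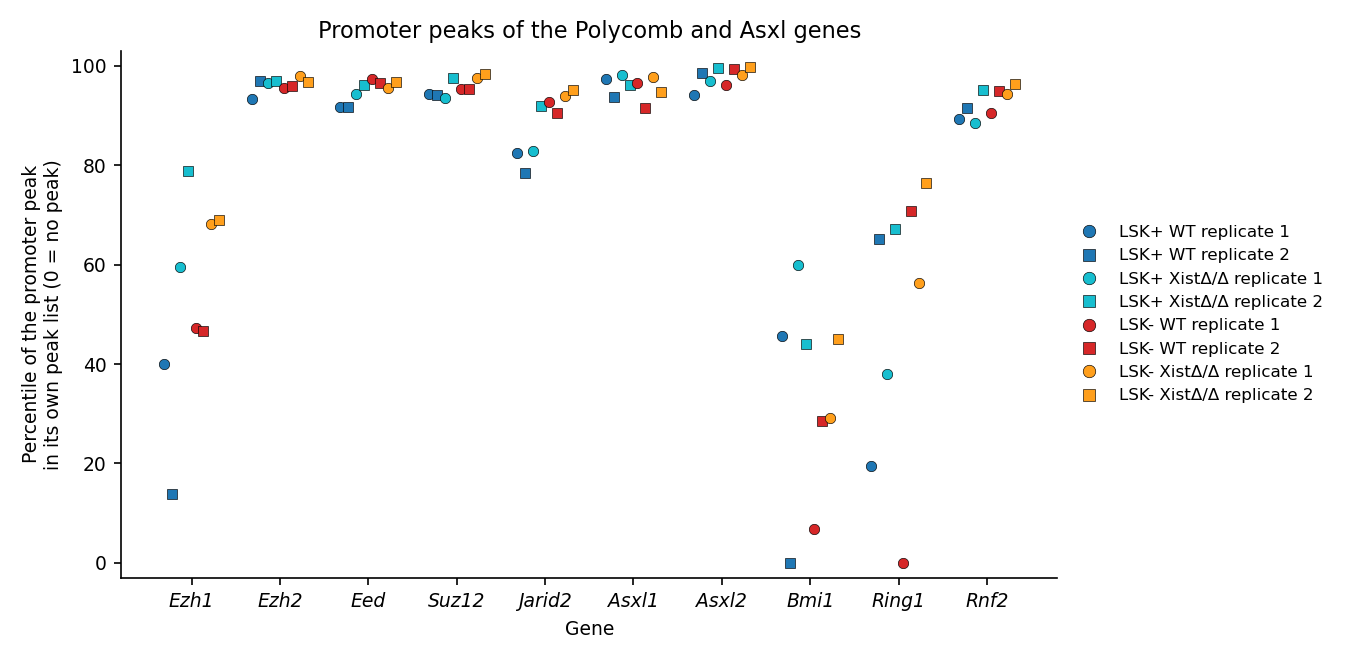
Percentile of the promoter peak of each gene (y axis) in each of the 8 libraries; colours are groups, circles replicate 1 and squares replicate 2, and 0 means no peak. Ezh2, Eed, Suz12, Asxl1, Asxl2 and Rnf2 sit above 88 in every library, while Ezh1, Bmi1 and Ring1 spread widely.

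The PRC2 catalytic subunits differed from each other. The Ezh2 promoter (gene at chr6:47530139-47595341, minus strand) ranked at 93.2 and 96.9 for LSK+ WT, 96.6 and 97.0 for LSK+ XistΔ/Δ, 95.6 and 96.0 for LSK- WT, and 98.0 and 96.7 for LSK- XistΔ/Δ. The Ezh1 promoter (gene at chr11:101191115-101226463, minus strand) ranked at 39.9 and 13.8 for LSK+ WT, 59.6 and 78.8 for LSK+ XistΔ/Δ, 47.3 and 46.6 for LSK- WT, and 68.2 and 69.0 for LSK- XistΔ/Δ. All Ezh2 values lay above all Ezh1 values. The core subunits were close to Ezh2. The Eed promoter (chr7:89954654-89980983, minus strand) ranked at 91.7 and 91.7 for LSK+ WT, 94.4 and 96.2 for LSK+ XistΔ/Δ, 97.3 and 96.5 for LSK- WT, and 95.4 and 96.7 for LSK- XistΔ/Δ. The Suz12 promoter (chr11:79993106-80034123, plus strand) ranked at 94.2 and 94.2 for LSK+ WT, 93.5 and 97.5 for LSK+ XistΔ/Δ, 95.2 and 95.4 for LSK- WT, and 97.5 and 98.3 for LSK- XistΔ/Δ. The targeting subunit Jarid2 (chr13:44729474-44921643, plus strand) ranked at 82.4 and 78.4 for LSK+ WT, 82.8 and 91.8 for LSK+ XistΔ/Δ, 92.6 and 90.5 for LSK- WT, and 94.0 and 95.1 for LSK- XistΔ/Δ. Of its LSK+ libraries, 3 lay below every LSK- library, and the remaining one, at 91.8, was inside the LSK- range.

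The Asxl genes encode partners of the deubiquitinase. The Asxl1 promoter (chr2:153345829-153404007, plus strand) ranked at 97.3 and 93.7 for LSK+ WT, 98.1 and 96.0 for LSK+ XistΔ/Δ, 96.4 and 91.5 for LSK- WT, and 97.7 and 94.6 for LSK- XistΔ/Δ. The Asxl2 promoter (chr12:3426857-3506852, plus strand) ranked at 94.1 and 98.6 for LSK+ WT, 96.9 and 99.5 for LSK+ XistΔ/Δ, 96.2 and 99.4 for LSK- WT, and 98.1 and 99.8 for LSK- XistΔ/Δ. The 2 genes ordered the replicates in opposite ways: in every group Asxl1 was higher in replicate 1 and Asxl2 in replicate 2, and the replicate numbers also mark the sequencing platform.

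Of the PRC1 genes, only Rnf2 had a uniformly strong promoter. Rnf2 ranked (chr1:151458004-151500955, minus strand) at 89.3 and 91.5 for LSK+ WT, 88.4 and 95.1 for LSK+ XistΔ/Δ, 90.4 and 94.9 for LSK- WT, and 94.3 and 96.2 for LSK- XistΔ/Δ. The Ring1 promoter (chr17:34020792-34024680, minus strand) ranked at 19.4 and 65.2 for LSK+ WT, 38.0 and 67.3 for LSK+ XistΔ/Δ, 0 and 70.9 for LSK- WT, and 56.2 and 76.3 for LSK- XistΔ/Δ. All 4 replicate 2 values of Ring1 were above all 4 replicate 1 values, so its spread followed the replicate number and with it the sequencing platform, whose part in it was not tested. Bmi1 (chr2:18677018-18686629, plus strand) ranked at 45.6 and 0 for LSK+ WT, 59.9 and 44.0 for LSK+ XistΔ/Δ, 6.72 and 28.5 for LSK- WT, and 29.2 and 45.0 for LSK- XistΔ/Δ. Its LSK+ and LSK- values overlapped, as did its WT and XistΔ/Δ values. These values come from 4 separate peaks within 3 kb of a Bmi1 TSS. The one at 4.08 kb in intron 1, whose sequence is shown, ranked at 45.6 and 0 for LSK+ WT, 59.9 and 44.0 for LSK+ XistΔ/Δ, and 0, 0, 15.9 and 2.47 in the LSK- libraries (difference 32.8 points; exact permutation P = 0.167). The one at -0.51 kb was absent from all 4 WT libraries and ranked at 0, 15.3, 29.2 and 45.0 in the XistΔ/Δ libraries, so that the leading Bmi1 peak was not the same in every library. The neighbouring gene Commd3, whose TSS region lies at -4.67 kb from the start of Bmi1, ranked at 82.0 to 94.4 in the 8 libraries. Near Ring1, which sits in the major histocompatibility complex, the TSS region of H2-K1 ranked at 94.0 to 98.7.

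Between LSK+ and LSK- cells, no promoter of the 10 genes had groups that did not overlap, in either direction. Over all protein-coding promoters tested, 2.08% were higher in every LSK+ library and 1.89% in every LSK- library. The largest LSK+ minus LSK- differences at strong promoters were -9.17 points at Jarid2 (two-sided exact permutation test of cell type within genotype, P = 0.0556) and -3.0 points at Eed (P = 0.111), and the weak promoters of Ezh1 and Bmi1 differed by -9.74 and 10.0 points within wide spreads (exact permutation P = 0.444 for both). That test has 36 assignments, so 0.0556 is its smallest P, and after Benjamini-Hochberg adjustment over all promoters the smallest value was 0.415. The median difference was -2.32 points over the 10 genes and -1.28 points over all promoters. Pairing libraries by replicate number within genotype, which also pairs them by platform, left Eed, Suz12, Jarid2, Asxl2 and Rnf2 higher in LSK- and Asxl1 higher in LSK+ in 4 of 4 pairs, where all promoters gave 23.7% and 9.63% (smallest sign-flip P, 0.125). Without LSK+ XistΔ/Δ replicate 2, 3 of the 10 promoters, Eed, Suz12 and Jarid2, were higher in every LSK- library, against 9.57% of all promoters under the same omission. Without LSK- WT replicate 2 this held at Jarid2 alone (all promoters, 9.01%), and without LSK- XistΔ/Δ replicate 1 at Eed alone (1.92%).

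The distal regions carried larger differences between the cell types than the promoters. Of the 66 distal regions, 23 were present in at least 4 libraries, and 3 of these (13.0%) were higher in every LSK- library than in every LSK+ library, against 9.01% of all 39282 distal regions tested. None was higher in every LSK+ library (all regions, 4.85%). The 3 regions belong to Ezh2, Ezh1 and Asxl1, and a region with the same pattern in Eed lies 2099 bp from the TSS of Gm45120, a transcript to be experimentally checked (biotype TEC), and so was not counted as distal. The Ezh2 and Ezh1 regions had the smallest P the design allows (0.0556, exact permutation test). No adjusted value over all distal regions was below 0.286. The Asxl1 and Eed regions had peaks in the 4 LSK- libraries and in no LSK+ library. Having met the minimum of 4 libraries in that way, they could not overlap and could only take this same P. For them neither is a test result, and the count of 3 includes the Asxl1 region. The Ezh2 region also met that minimum through its 4 LSK- libraries, its only LSK+ peak ranking at 3.88, so its P carries little weight. The share over all distal regions was taken under the same minimum.

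The Ezh2 region, chr6:47565423-47566258, lies in intron 3 of the longest coding transcript, 29.5 kb inside the gene. It ranked at 0 and 0 for LSK+ WT, 3.88 and 0 for LSK+ XistΔ/Δ, 87.9 and 30.5 for LSK- WT, and 93.7 and 62.4 for LSK- XistΔ/Δ. The mean was 0.97 ± 1.94 (SD, n = 4) in LSK+ and 68.6 ± 28.8 (n = 4) in LSK-, a difference of -67.7 points, lower than at all but 1.80% of distal regions tested. The difference was -88.9 points between replicate 1 libraries and -46.4 points between replicate 2 libraries. This was the only one of the 5 distal Ezh2 regions present in at least 4 libraries.

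The Ezh1 region, chr11:101189668-101190451, lies just beyond the 3′ end of Ezh1, in the 3′ untranslated part of the last exon of the neighbour Cntnap1, so its sequence is not shown. It ranked at 27.2 and 0 for LSK+ WT, 30.7 and 0 for LSK+ XistΔ/Δ, 88.6 and 53.1 for LSK- WT, and 92.9 and 68.7 for LSK- XistΔ/Δ. Here LSK+ cells were not without a peak: both replicate 1 libraries had one of lower rank. The difference was -61.4 points (LSK+ 14.5 ± 16.8, LSK- 75.8 ± 18.5, SD, n = 4 each), with -61.8 points in replicate 1 and -60.9 points in replicate 2 libraries.

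The Asxl1 region, chr2:153333970-153334785, lies at -11.3 kb. No LSK+ library had a peak there. The LSK- WT libraries ranked at 50.6 and 38.9, and their XistΔ/Δ counterparts at 81.0 and 29.8. The difference was -50.1 points, and with all lists shortened to the top 29829 peaks only 2 LSK- libraries kept the peak and the groups overlapped. The Eed region, chr7:89962950-89963524, lies in intron 8 of the gene, 17.7 kb from its start. It had no peak in any LSK+ library and ranked at 68.9 and 46.5 for LSK- WT libraries, and at 87.6 and 64.8 in those of LSK- XistΔ/Δ, a difference of -67.0 points. With lists of equal length the groups still stood apart at Ezh2 (-46.4 points), Ezh1 (-56.6 points) and Eed (-36.6 points), which left 2 of the 23 distal regions higher in every LSK- library, against 5.77% of all. Fold enrichment over the local background was 9.35 to 14.6 at the Eed peaks and 6.02 to 8.96 at the Asxl1 peaks.

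**Figure D2:**
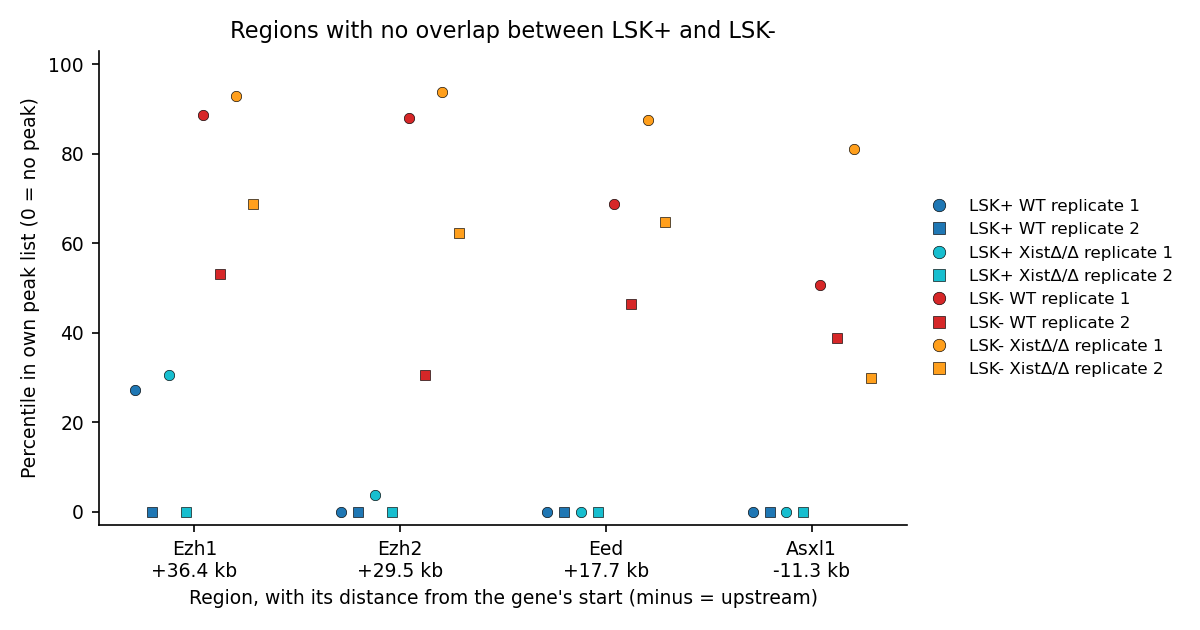
Percentile (y axis) in each library at the 4 regions whose LSK+ and LSK- values did not overlap, with their distance from the gene's start; colours are groups, circles replicate 1 and squares replicate 2. In the Eed and Asxl1 regions all 4 LSK+ libraries are at 0, and at every region the highest value is that of LSK- XistΔ/Δ replicate 1.

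**Figure D3:**
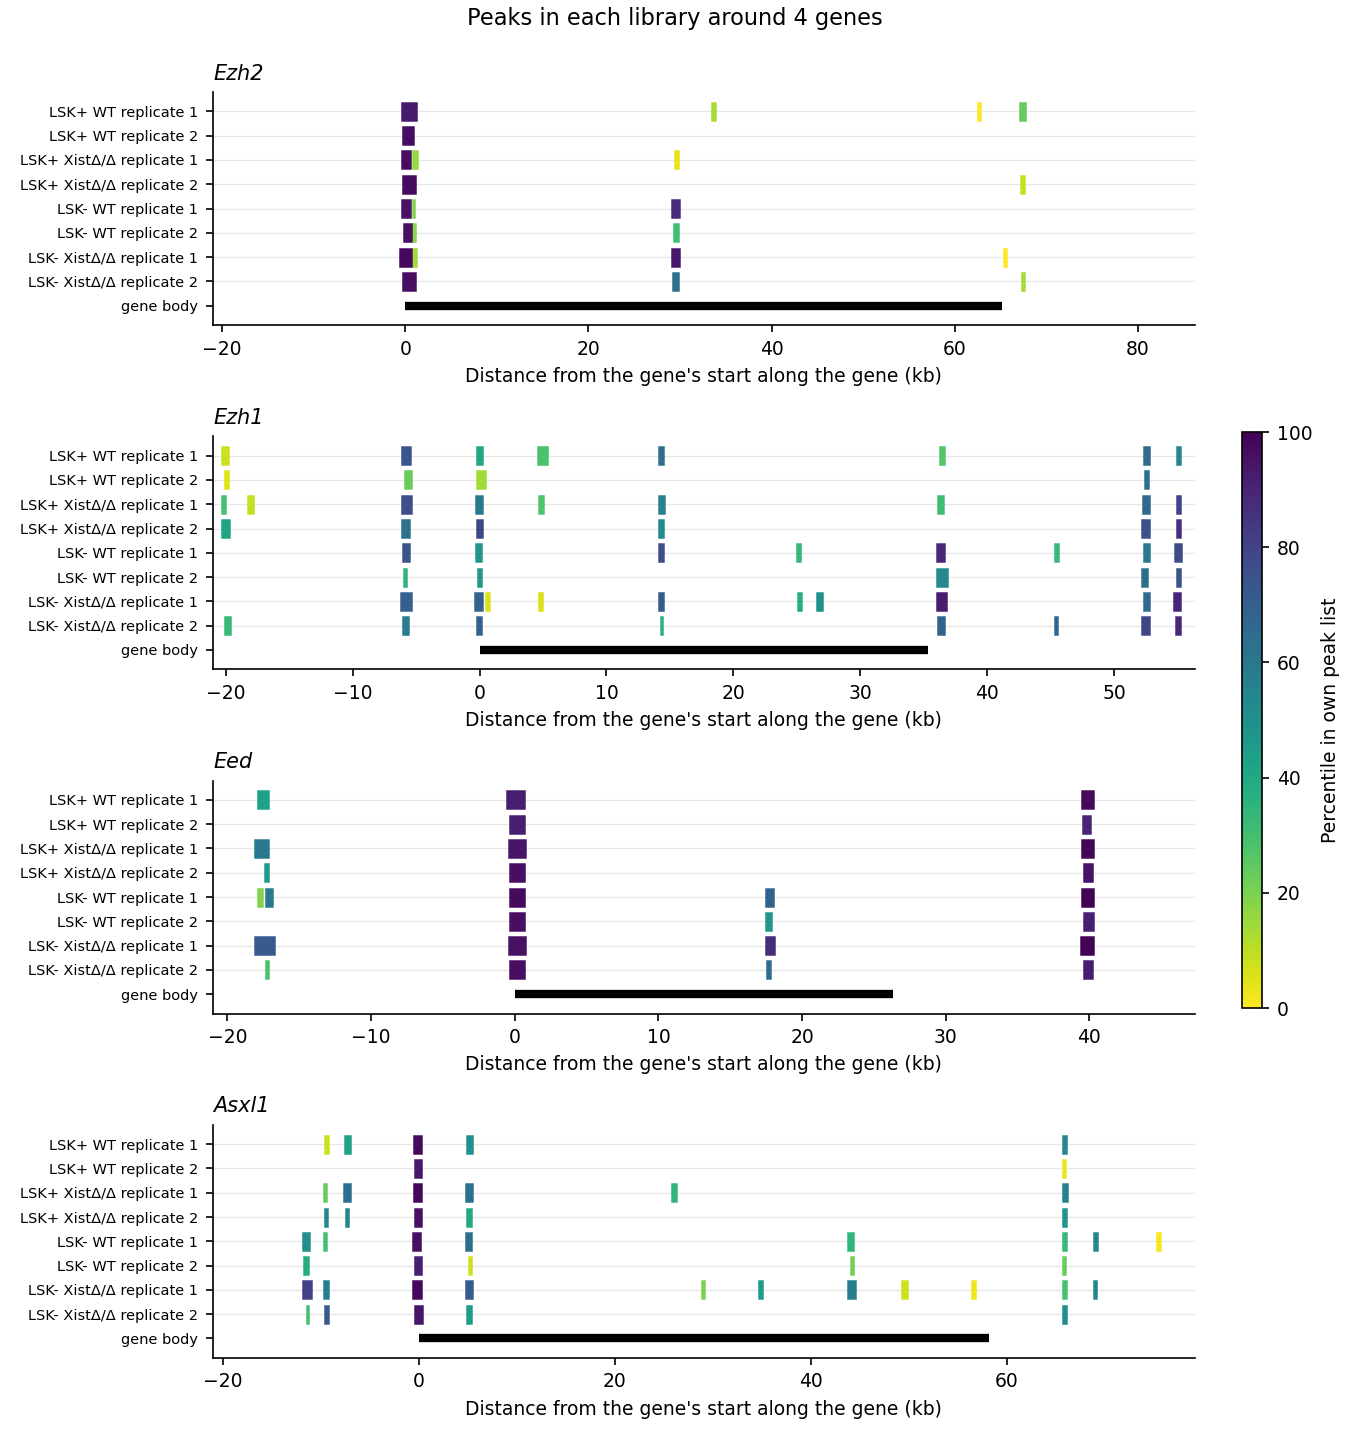
Peaks of each library (rows) along Ezh2, Ezh1, Eed and Asxl1, as distance in kb from the gene's start; the black bar is the gene body and the colour is the percentile. The promoter peaks at 0 kb are present in all 8 rows, while the peaks at 29.5 kb in Ezh2, 36.4 kb at Ezh1, 17.7 kb in Eed and -11.3 kb at Asxl1 stand mainly in the lower 4 rows.

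Among the 8 LSK- markers, Gata1 and Epor stood apart in the same direction as these 4 regions, and the others did not stand apart. The Gata1 promoter was at 0 in all LSK+ libraries and at 29.6, 28.7, 72.7 and 41.2 in the LSK- libraries. The promoter of Epor, the erythropoietin receptor gene, ranked at 35.97 to 85.4 in LSK+ and 87.3 to 95.1 in LSK- libraries. The promoter of Klf1, another erythroid factor, did not follow, with 89.97 to 94.7 in LSK+ and 78.5 to 92.5 in LSK- libraries. Csf1r did not follow either, with an LSK+ minus LSK- difference of 11.3 points. Gfi1b, Mpo, Elane and Cebpe had lower means in LSK+ (-21.7, -17.4, -17.1 and -4.41 points), with values that overlapped. Summed over all 8 LSK- markers, the percentiles were 257 to 434 for LSK+ WT, 505 to 506 for LSK+ XistΔ/Δ, 473 to 518 for LSK- WT, and 564 to 603 for LSK- XistΔ/Δ. The 8 LSK+ markers summed to 411 to 484 in LSK+ and 338 to 492 in LSK- libraries, and the 3 markers of both populations to 223 to 270 and 169 to 248. The part of the mix of progenitors in the differences at the 4 regions was not tested. A change in that mix cannot be told apart from more open chromatin in each cell.

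**Figure D4:**
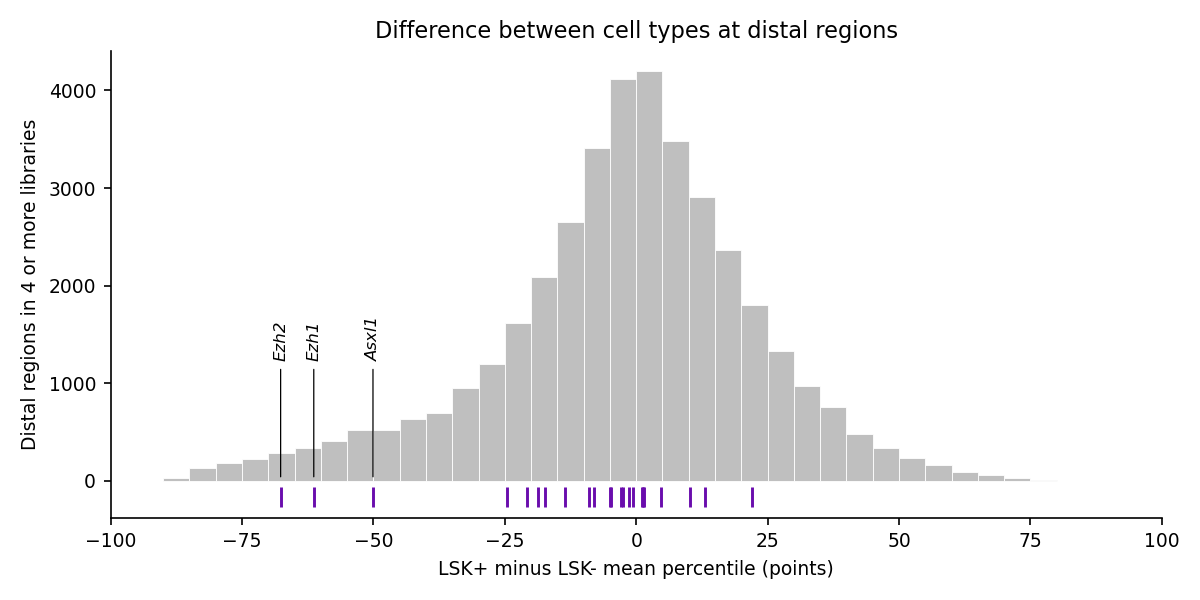
Number of distal regions (y axis) by LSK+ minus LSK- difference in mean percentile (x axis, points) over all 39282 distal regions present in at least 4 libraries. Ticks below the axis are the 23 distal regions of the 10 genes; the labelled Ezh2, Ezh1 and Asxl1 regions are those whose groups did not overlap, at -67.7, -61.4 and -50.1 points.

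The other 20 distal regions present in at least 4 libraries overlapped between the cell types. Over all 23, the median difference was -4.87 points, 16 being lower and 7 higher in LSK+, against a median of -0.429 over all distal regions. The largest difference toward LSK+ was 22.0 points, in intron 1 of Jarid2 at chr13:44799689-44800557, where the LSK+ libraries ranked at 69.0, 49.5, 71.6 and 52.4 and the LSK- libraries at 49.3, 6.31, 50.7 and 48.4, WT before XistΔ/Δ (exact permutation P = 0.0556). The groups overlapped because LSK+ WT replicate 2, at 49.5, lay below LSK- XistΔ/Δ replicate 1, at 50.7. The rule of 4 of 4 pairs called 1 distal region higher in LSK+, this one (4.35%, against 14.9% of all), and 5 higher in LSK- (21.7%, against 18.6%). Among regions present in fewer than 4 libraries, which were not tested, one at -7.34 kb from Asxl1 and one at 26.7 kb in Asxl2 had a peak in 3 LSK+ and 0 LSK- libraries. Regions at 44.2 kb in Asxl1 and 17.2 kb in Rnf2 had a peak in 3 LSK- and 0 LSK+ libraries. Without LSK- WT replicate 2, 5 of the 23 distal regions were higher in every LSK- library, against 16.8% of all distal regions. Without LSK- XistΔ/Δ replicate 1, 2 of the 23 were higher in every LSK+ library (all, 6.1%), and without LSK+ WT replicate 2 this held for 1 (all, 19%).

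Jarid2, the longest of the 10 genes at 192 kb, had 20 of the 66 distal regions, followed by Asxl1 with 11, Rnf2 with 9, Ezh1 with 7, Suz12 with 6, Ezh2 with 5, Asxl2 with 4, Bmi1 with 3 and Eed with 1. Ring1, a gene of 3.89 kb among close neighbours, had none, and its 7 other regions all lay near the TSS of another gene. Many distal regions were seen in a single list: 28 of 66 (42.4%) were present in 1 library only, against 28.2% of all distal regions, and 18 of these 28 came from LSK- XistΔ/Δ replicate 1, the longest list. Only 5 distal regions (7.58%, against 9.57% of all) were present in all 8 libraries, 2 at Jarid2, 2 at Bmi1 and 1 at Ezh1.

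By mean percentile, the leading distal regions of the genes were of middle rank, and their presence varied: those of Ezh1, Jarid2 and Bmi1 were in all 8 libraries, those of Rnf2, Asxl1 and Asxl2 were missing from LSK+ WT replicate 2, and those of Suz12 and Eed from both WT replicate 2 libraries. At Ezh1 it was a region at -5.84 kb (chr11:101231854-101232615), at 73.6 and 23.2 for LSK+ WT, 76.1 and 62.4 for LSK+ XistΔ/Δ, 73.9 and 34.8 for LSK- WT, and 70.1 and 58.6 for LSK- XistΔ/Δ. At Jarid2 it lay 90.1 kb inside intron 1 (chr13:44819140-44819887), at 76.2 and 17.5, 82.9 and 60.8, 77.3 and 21.3, and 70.7 and 49.1 in the same order of groups. At Rnf2 it lay beyond the 3′ end (chr1:151457015-151457571), at 78.7 and 0, 78.9 and 72.1, 77.2 and 21.3, and 60.5 and 65.4. In these 3 regions both WT replicate 2 libraries were the lowest, and these are the 2 shortest lists. The leading region of Suz12, 50.0 kb from its start (chr11:80042705-80043308), ranked at 57.3 to 77.8 in 6 libraries and had no peak in either WT replicate 2 library. That of Eed at -17.2 kb (chr7:89997750-89999028) ranked at 28.6 to 71.8 in the same 6 libraries and was likewise absent from WT replicate 2. In Asxl1 it lay in intron 1 at 5.01 kb (chr2:153350598-153351282) and was present in 7 libraries at 7.38 to 71.5, and in Asxl2 in intron 1 at 14.8 kb (chr12:3441010-3442090), in 7 libraries at 16.1 to 49.9. At Bmi1 it lay 17.02 kb from the start, beyond the gene (chr2:18693810-18694735), at 53.2 and 48.8 for LSK+ WT, 64.0 and 63.2 for LSK+ XistΔ/Δ, 29.98 and 33.7 for LSK- WT, and 66.4 and 46.9 for LSK- XistΔ/Δ.

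Between WT and XistΔ/Δ, values were higher in XistΔ/Δ almost throughout, as they were over all features. All 10 promoters had a higher mean in XistΔ/Δ, with a median difference of 1.97 points, against 6.43 points over all promoters, 96.9% of which were higher. Only the Ezh1 promoter was higher in every XistΔ/Δ library than in every WT library (1 of 10, against 8.67% of all promoters). Its mean was 36.9 ± 15.8 (SD, n = 4) in WT and 68.9 ± 7.85 (n = 4) in XistΔ/Δ, a difference of 31.9 points (exact permutation test of genotype within cell type, P = 0.0556; smallest adjusted P over all promoters, 0.282). The difference was 20.2 points in replicate 1 and 43.7 points in replicate 2 libraries, and 31.9 points without LSK- XistΔ/Δ replicate 2, whose Xist promoter had a peak. With all lists cut to the same length it was 11.4 points, LSK+ XistΔ/Δ replicate 1 and both WT replicate 1 libraries were at 0, and the groups overlapped. At equal length 0.249% of all promoters, and none of the 10, were higher in every XistΔ/Δ library, and 6 of the 10 differences were below 0, from -11.9 points at Ring1 to -0.14 points at Asxl1. By replicate pairs, 7 of the 10 promoters were higher in XistΔ/Δ in 4 of 4 pairs, against 43.2% of all promoters. Without LSK+ WT replicate 1, LSK+ WT replicate 2 or LSK+ XistΔ/Δ replicate 1, the groups also stood apart at Bmi1, Ezh2 and Suz12, respectively, which made 2 of 10 in each case, against 15.9%, 9.46% and 25.7% of all promoters.

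**Figure D5:**
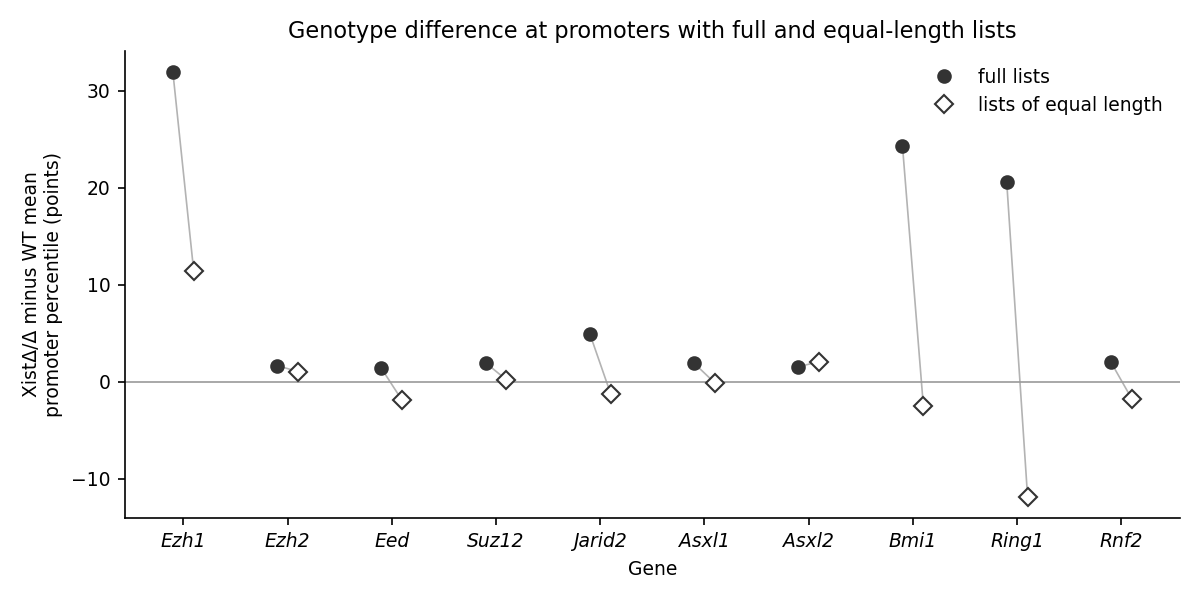
XistΔ/Δ minus WT difference in mean promoter percentile (y axis, points; n = 4 libraries per genotype) for each gene, with full lists (filled circles) and with every list cut to its strongest 29829 peaks (open diamonds). The difference at Ezh1 goes from 31.9 to 11.4 points. Those at Bmi1 and Ring1 change sign, to -2.48 and -11.9 points. So do the smaller ones at Eed, Jarid2, Asxl1 and Rnf2, to -1.94, -1.25, -0.14 and -1.78 points.

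Of the 23 distal regions tested, 22 had a higher mean in XistΔ/Δ, with a median difference of 18.7 points against 14.7 points over all distal regions. Of the 23, 2 (8.70%, against 5.92% of all) were higher in every XistΔ/Δ library, both downstream of their gene. The Jarid2 region, chr13:44937679-44938211, ranked at 42.4 and 0 for LSK+ WT, 77.9 and 59.0 for LSK+ XistΔ/Δ, 0 and 21.3 for LSK- WT, and 53.1 and 64.1 for LSK- XistΔ/Δ (difference 47.6 points; exact permutation P = 0.0556). The Bmi1 region, chr2:18688772-18689748, ranked at 27.4 and 13.2 for LSK+ WT, 43.7 and 44.9 for LSK+ XistΔ/Δ, 26.2 and 14.4 for LSK- WT, and 50.7 and 33.6 for LSK- XistΔ/Δ (22.9 points; exact permutation P = 0.0556). At equal list length neither group of values stood apart, the Jarid2 difference was 18.97 points and the Bmi1 difference turned to -3.30 points, and 0.221% of all distal regions were higher in every XistΔ/Δ library. Without LSK- XistΔ/Δ replicate 2 the differences were 47.4 and 26.1 points, and 3 of the 23 distal regions stood apart, against 9.64% of all. In the flank of Ezh1, the TSS regions of its neighbours Plekhh3 (34.5 points) and Ccr10 (8.32 points) also stood apart by genotype, and the Ccr10 difference was -9.33 points at equal length. By replicate pairs, 9 of the 23 (39.1%) were higher in XistΔ/Δ, against 30.1% of all distal regions. Leaving out LSK+ WT replicate 1, LSK+ XistΔ/Δ replicate 1 or LSK- WT replicate 1 raised the count from 2 to 4 of 23, against 13%, 8.52% and 15.8% of all distal regions. No distal region or promoter of the 10 genes was higher in every WT library.

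The promoters of 36 other genes of the Polycomb system all had a peak in at least 4 libraries, and none had groups apart between LSK+ and LSK- cells. Their median LSK+ minus LSK- difference was -3.78 points, with 11 higher and 25 lower in LSK+, and 16 of the 36 had the same direction in 4 of 4 pairs, each of them higher in LSK-, a direction that 23.7% of all promoters had in 4 of 4 pairs. By genotype, 4 of 36, all higher in XistΔ/Δ, stood apart (8.67% of all promoters), and none did at equal list length. Phc3, a PRC1 subunit, ranked at 70.5 and 63.4 for LSK+ WT, 76.8 and 81.2 for LSK+ XistΔ/Δ, 58.0 and 66.7 for LSK- WT, and 81.3 and 76.6 for LSK- XistΔ/Δ. Its relative Phc1 ranked at 35.8, 40.3, 52.4 and 43.3 in the WT and at 52.7, 52.5, 59.4 and 53.0 in the XistΔ/Δ libraries, a difference of 11.5 points that was -16.8 points at equal length. Bcorl1, an X-linked corepressor gene of a PRC1 variant, ranked at 83.5 to 94.0 in WT and 95.2 to 98.0 in XistΔ/Δ libraries. Its difference was 7.53 points with full and 10.4 points with equal lists. The other X-linked genes of the 36 did not rise with equal lists. Their differences were -1.87 points at Rbbp7, -11.3 at Bcor, -4.37 at Hcfc1 and -0.0025 at Kdm6a. Pcgf3, which encodes a relative of BMI1, ranked at 86.8 to 95.3 and 96.0 to 96.4. The H3K27 demethylase genes, named after their values were seen, stood at both ends: the X-linked Kdm6a ranked at 97.0 to 99.7 in all 8 libraries and Kdm6b at 0 to 48.7. The third Asxl gene, Asxl3, also named after its values were seen, had the lowest mean of the 36, 7.85 ± 9.56 (SD, n = 8). Leaving out LSK+ XistΔ/Δ replicate 1 raised the genotype count from 4 to 19 of 36, against 25.7% of all promoters, and leaving out LSK- WT replicate 2 raised it to 7, against 12.4%. Leaving out LSK+ WT replicate 1, LSK+ WT replicate 2 or LSK- WT replicate 1 gave 5, against 15.9%, 9.46% and 19.2%. Leaving out LSK+ XistΔ/Δ replicate 2 or LSK- WT replicate 1 raised the number higher in every LSK- library from 0 to 8 or 3, against 9.57% and 3.41% of all promoters. Leaving out LSK+ WT replicate 2 or LSK- XistΔ/Δ replicate 1 left 1 of the 36 higher in every LSK+ library, against 7.05% and 3.3%.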

How the data were processed

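ATAC-seq peak lists of 8 libraries were used, 2 per group. Per the labels and the study's methods, the authors trimmed reads with Trim Galore, aligned them to mm10 with Bowtie2 2.3.5.1, removed alignments with a mapping quality below 30 and mitochondrial reads with SAMtools 1.10, and called peaks per library with MACS2 2.2.7.1 at a q-value of 0.01. A control library, duplicate removal and a Tn5 shift are not given in the sources used here. The deposited columns are a score, the fold enrichment (a ratio), the −log10 p-value, the −log10 q-value and the summit offset. The lists hold no read counts, and the values were not set against depth. The study lists the reads of each library, and those totals were used only to order each XistΔ/Δ library against its WT counterpart. Counts of reads per peak were not used.

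Peaks on chromosomes 1 to 19 and X were given their percentile rank by −log10 p in their own list (ties at their mean rank) and merged across libraries where they overlapped by at least 1 bp. A region or promoter took the highest percentile of its peaks, and 0 where a library had none. Genes and TSSs came from GENCODE M21 basic (GRCm38, the assembly of mm10), and all peaks ended within the reference chromosomes. A promoter was a summit within 3 kb of a TSS of the gene. Features with a peak in at least 4 libraries were compared by the difference of means, with cell type or genotype exchanged in all ways within the other factor (exact permutation test, two-sided), with Benjamini-Hochberg adjustment over all of them, and called when the 4 libraries of each side did not overlap. The functions were tested on simulated lists. Replicate numbers mark the sequencing platform and read length in the study's listing of libraries, and deviations of same-numbered libraries from their group means correlated at 0.352 to 0.552 over promoters in all pairs of groups, so the numbers were taken as pairs. The members, the gene lists and the rules for naming (all 10 genes, the leading and the non-overlapping distal regions, and up to 6 non-overlapping other Polycomb genes) were chosen with earlier results of these data known. Python 3.11.15, numpy 2.4.6, scipy 1.17.1 and pandas 2.3.3 were used. The alternatives tried were equal list lengths, ranking by fold, a stricter q-value, a 1 kb TSS window, a coverage minimum, each library left out, and the replicate block.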

Additional observations from a re-analysis of the deposited data

Results flagged for a closer look

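At the region at -3.43 kb from Ring1, at the TSS of H2-Ke6 (chr17:34027267-34028343), the difference between cell types went in opposite directions in the genotypes. LSK+ minus LSK- was 4.60 points in WT, where LSK+ ranked at 74.9 and 81.6 and LSK- at 72.6 and 74.6. It was -7.29 points in XistΔ/Δ, where LSK+ ranked at 74.3 and 82.9 and LSK- at 85.8 and 86.1. In each genotype all libraries of a cell type lay on the same side of the other cell type, and the difference between the genotypes was not tested.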

How the results depend on the processing

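At equal list length, the counts of genotype-separated features fell to 0 for the promoters of the 10 genes, 0 for their distal regions and 0 for the other Polycomb promoters, and the genotype differences at the Bmi1 region at 18688772 and the Ccr10 TSS region reversed, to -3.30 and -9.33 points. Ranking by fold enrichment gave 2 other Polycomb promoters separated by cell type, 0 by genotype, and 4 distal regions separated by genotype. The replicate block gave 6 promoters and 16 other promoters by cell type, 7 and 20 by genotype, 1 distal region higher in LSK+ and 5 higher in LSK-, and 9 distal regions by genotype; a sign-flip test of 4 pairs cannot give a P below 0.125. Leaving out each library in turn gave 0 to 3 promoters by cell type and 1 to 2 by genotype, 0 to 8 and 4 to 19 other promoters, 0 to 2 distal regions higher in LSK+, 3 to 5 higher in LSK-, and 2 to 4 by genotype; with 3 libraries on a side, non-overlap is easier to meet. The stricter q-value, the 1 kb TSS window and the coverage minimum of 50% of a region, which was chosen after seeing the data, kept these counts within 1.5 times; the window of 1 kb made the Eed region distal and gave 4 regions higher in LSK-. The planned overlap of 50% of the shorter interval was not run, because merged regions hold whole peaks. The differences at the 4 LSK- regions kept their sign under all settings run, from -73.8 to -36.6 points at Eed, -80.4 to -46.4 at Ezh2, -68.9 to -55.7 at Ezh1 and -56.8 to -16.2 at Asxl1. In short lists, a percentile of 0 may be a weak peak below the threshold.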
